A study of Homo sapiens with 24 samples.

Results

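Butyrophilins are surface proteins of the immunoglobulin superfamily, and 5 of their genes, BTN3A1, BTN3A2, BTN3A3, BTN2A1 and BTN2A2, were followed here through a neuroblastoma experiment on copper, copper chelators and interferon. They were taken by name from the 26485 genes of the deposited count table, and all 5 were among the 14654 genes that passed a filter on low counts. BTN3A1 and BTN3A2 were chosen by their measured difference, one way with copper and the other way with the chelator TEPA, in these same libraries. The values under copper alone and TEPA alone, and the dependence of the interferon difference on TEPA, are therefore given as descriptions without a test for all 5 genes. Other comparisons and ratios were tested. Those that use the untreated or TEPA libraries share them with the choice of genes and are not independent of it. Each of the 2 genes was lower with copper and higher with TEPA, so the 2 moved together and not against each other.

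The data are 24 RNA libraries, 3 for each of 8 groups, of the established neuroblastoma cell line SH-SY5Y. Cells were harvested at 4 h with copper chloride (CuCl2) or untreated. At 24 h they were harvested with the polyamine TEPA plus interferon gamma (IFN), dextran-catechin (DC) plus IFN, IFN alone, TEPA alone, DC alone, or untreated. DC and TEPA are described by the submitters as copper chelators. All groups come from 1 cell line, the doses are not in the labels, and no label says that the 3 libraries of a group are separate cultures, so p-values measure only the spread between libraries, which may be technical.

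BTN3A1 and BTN2A1 take part in the response of gamma delta T cells with a Vγ9Vδ2 receptor to phosphorylated isoprenoid precursors, called phosphoantigens. BTN3A1 binds the phosphoantigen through its intracellular PRY/SPRY domain, BTN2A1 is a direct ligand of the T cell receptor, and tumour cells that accumulate phosphoantigens are killed by these T cells. Interferon gamma induces the transcription factor IRF1, and the transactivators NLRC5 and CIITA, with the RFX and NF-Y complexes, act on a promoter module made of an X1 box and a Y box (CCAAT) best known from the genes of the major histocompatibility complex.

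The 5 genes lie on the plus strand of chromosome 6 within 111463 bases (GENCODE 29, GRCh38). BTN3A2 spans chr6:26365159-26378320, BTN2A2 chr6:26383096-26394874, BTN3A1 chr6:26402237-26415216, BTN3A3 chr6:26440472-26453415 and BTN2A1 chr6:26457904-26476621. No other annotated gene overlaps any of them. Sequence is shared within each subfamily and not between BTN3A and BTN2A genes, which had 0 windows of 50 bases in common. Of all 50-base windows of the longest coding transcript, 19.17% in BTN3A3, 15.09% in BTN3A2, 10.25% in BTN3A1, 6.27% in BTN2A1 and 4.94% in BTN2A2 occurred in another gene of the same subfamily or, for the BTN2A genes, in the pseudogene BTN2A3P. With 100-base windows these shares were at most 7.37%. The counts of the single genes are uncertain to the extent that such reads were divided among copies, and the 3 BTN3A genes and both BTN2A genes were therefore also summed and tested as single rows.

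Promoter windows, running from 250 bases before to 50 bases after the start of a RefSeq gene (GRCh38.p14), were found for 3 of the 5 genes, BTN3A2, BTN3A3 and BTN2A1. They are shown because the 3 genes share a motif pair that is rare among promoters. Capitals mark the X1 box core CCNAGCAAC, the Y box CCAAT in either orientation and, in BTN3A3, a minus-strand match to the core of the interferon-stimulated response element.
BTN3A2: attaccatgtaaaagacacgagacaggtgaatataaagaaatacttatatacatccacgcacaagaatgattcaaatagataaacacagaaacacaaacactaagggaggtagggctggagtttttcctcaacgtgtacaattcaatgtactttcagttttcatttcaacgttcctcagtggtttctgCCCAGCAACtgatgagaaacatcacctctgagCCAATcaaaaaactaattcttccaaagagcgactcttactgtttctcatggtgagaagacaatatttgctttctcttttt
BTN3A3: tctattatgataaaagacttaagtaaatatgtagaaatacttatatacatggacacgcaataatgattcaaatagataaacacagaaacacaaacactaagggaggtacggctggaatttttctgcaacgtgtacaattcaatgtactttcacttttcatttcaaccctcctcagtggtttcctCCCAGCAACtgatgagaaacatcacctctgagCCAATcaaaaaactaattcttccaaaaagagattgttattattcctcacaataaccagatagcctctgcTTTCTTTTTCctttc
BTN2A1: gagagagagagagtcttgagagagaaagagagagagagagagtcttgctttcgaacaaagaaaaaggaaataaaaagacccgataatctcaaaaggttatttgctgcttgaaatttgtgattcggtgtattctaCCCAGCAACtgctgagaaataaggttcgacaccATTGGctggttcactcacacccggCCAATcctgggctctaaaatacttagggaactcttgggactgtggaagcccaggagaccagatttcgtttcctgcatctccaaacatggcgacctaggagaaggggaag
These windows are chr6:26364948-26365247 (BTN3A2), chr6:26440254-26440553 (BTN3A3) and chr6:26457705-26458004 (BTN2A1), all on the plus strand.

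All 3 windows held an X1 box core followed by a Y box within 40 bases. The X1 core began 62 bases before the start site in BTN3A2, 66 bases before it in BTN3A3 and 116 bases before it in BTN2A1. Of 35116 promoter windows of the same length, 1.76% held the X1 core on either strand, 34.6% held CCAAT, and 0.185% (65 windows) held both in that order within that distance. Windows with the Y box ahead of the X1 core were not counted in the last share. The BTN3A2 and BTN3A3 windows were identical at 85.1% of 295 aligned bases, so their shared motifs are not separate instances, whereas the BTN3A2 and BTN2A1 windows were identical at 47.2%. The core of the interferon-stimulated response element was held by 3.57% of all windows and occurred in BTN3A3 only, downstream of the start site. TTCNNNGAA, the gamma-activated site (7.66% of windows), and the metal response element cores TGCACNC (12.1%) and TGCGCNC (20%) had no match in the 3 windows on either strand. A second BTN3A2 window, at chr6:26367928-26368227, held none of these motifs. A match is a description of letters and not a proven binding site.

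**Figure D1:**
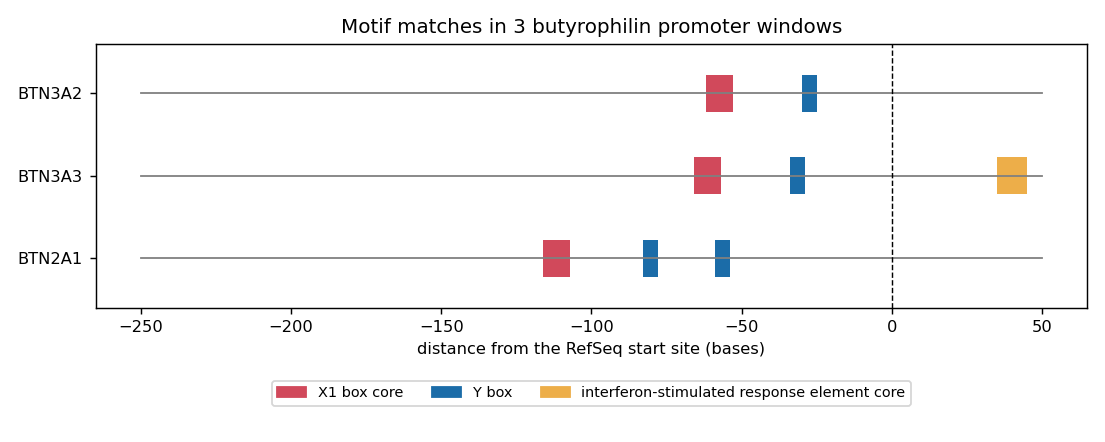
Positions of motif matches in the promoter windows of BTN3A2, BTN3A3 and BTN2A1; the x axis is the distance from the RefSeq start site in bases, grey lines are the windows and coloured boxes are matches. Each gene has an X1 box core upstream of a Y box, and the match to the interferon-stimulated response element core in BTN3A3 lies downstream of the start site.

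Library totals ran from 24569980 to 35372442 counts, and levels below are CPM, counts scaled to a common library size with edgeR's TMM factors. MT2A, 1 of a family of metallothionein genes with near-identical copies, was higher with copper, with a log2 fold change of 5.28 (SE 0.53, edgeR adjusted p = 1.61e-06). SLC30A1, a metal-induced zinc exporter, was lower with TEPA by a log2 fold change of -1.50 (SE 0.17, edgeR adjusted p = 2.07e-04). With DC alone 0 of these 2 genes were called. SLC30A1 averaged 21.1 CPM with DC and 23.8 CPM in untreated 24 h cells, and MT2A 0.291 and 0.318 CPM. MT2A is not a measure of copper alone here, as it averaged 8.16 CPM with IFN. Of 7 adrenergic neuroblastoma markers examined, 6 passed the filter and TH, tyrosine hydroxylase, had at most 2 counts in any group; the list summed to 1201 to 1644 CPM per library. The 3 leukocyte markers in the table (PTPRC, CD14, CD3E, of 6 listed) summed to at most 0.862 CPM and CD3E had 0 counts throughout. The 3 stromal markers summed to 371 to 568 CPM per library, nearly all from the extracellular matrix genes COL3A1 and LUM, while the endothelial gene PECAM1 had at most 0.0353 CPM. That sum was 481 to 522 CPM with IFN and 408 to 461 CPM in untreated 24 h cells, neither COL3A1 nor LUM was called there by edgeR, and its part in the results was not tested. The first library of the untreated 4 h cells and that of the copper cells stood apart in the dependence of counts on gene GC content. A GC measure, the median log2 level of GC-rich genes minus that of GC-poor genes, each relative to the mean over libraries, was -0.644 in that copper library and -1.32 in that untreated 4 h library, against 0.653 to 1.38 in the other 4 libraries at 4 h. Results at 4 h are given with and without those 2 libraries.

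Interferon raised all 5 transcripts, and the BTN3A genes by larger factors than the BTN2A genes. In RNA of whole cultures, a change in every cell and a change in part of the cells cannot be told apart. BTN3A1, the phosphoantigen sensor, had 151, 155 and 131 CPM in the IFN libraries, against 30.3, 30.7 and 33.5 CPM in the untreated 24 h libraries. BTN3A2, which lacks the PRY/SPRY domain and pairs with BTN3A1 at the surface, had 213, 213 and 191 CPM with IFN, against 48.5, 47.1 and 49.0 CPM untreated. BTN3A3, whose PRY/SPRY domain does not bind phosphoantigens, had 67.7, 70.2 and 59.4 CPM with IFN, against 11.5, 9.47 and 10.3 CPM untreated. The groups were far apart for the 3 genes, and the third IFN library was the lowest for each. The log2 fold changes were 2.21 (SE 0.10) for BTN3A1, 2.09 (SE 0.08) for BTN3A2 and 2.66 (SE 0.12) for BTN3A3, with adjusted p = 1.45e-12, 7.19e-14 and 1.78e-12 in edgeR's quasi-likelihood test. These correspond to 4.63-fold, 4.27-fold and 6.32-fold higher levels.

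BTN2A1, the T cell receptor ligand, had 45.1, 41.5 and 35.5 CPM with IFN, against 25.6, 27.6 and 23.7 CPM in untreated 24 h cells. BTN2A2, whose mouse counterpart restrains T cell activation, had 21.0, 22.5 and 16.8 CPM with IFN, against 10.97, 12.3 and 11.4 CPM untreated. Neither gene's groups overlapped. Here and below a lack of overlap is a description only, and its share over all genes in the interferon and DC comparisons is not given. With TEPA alone, 6.97% of all genes were higher without overlap, while edgeR called 1.06% in either direction. Their log2 fold changes were 0.67 (SE 0.13, adjusted p = 0.00103) for BTN2A1 and 0.80 (SE 0.13, adjusted p = 1.36e-04) for BTN2A2, in the same edgeR fit. Among all genes tested 10% were called higher with IFN (adjusted p under 0.05), and 5 of the 5 butyrophilins were. Their median log2 fold change was 2.09, against 0.01 over all genes. The BTN3A1 and BTN3A3 changes exceeded those of 97.3% and 97.9% of tested genes and BTN3A2 ranked 440 from the top, while 79.6% of genes lay below BTN2A1 and 83.1% below BTN2A2. Summed, the BTN3A row rose by a log2 fold change of 2.21 (SE 0.08, edgeR adjusted p = 4.71e-14), and the BTN2A row by 0.71 (SE 0.12, adjusted p = 2.22e-04).

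The GC measure ran from -0.125 to 0.900 in the IFN libraries, against -0.962 to -0.364 in the untreated 24 h libraries, so it moved with the treatment. With a correction for GC content in the edgeR fit the changes were 0.59 (SE 0.10) for BTN2A1, 0.81 (SE 0.13) for BTN2A2 and 2.10 to 2.75 for the BTN3A genes.

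**Figure D2:**
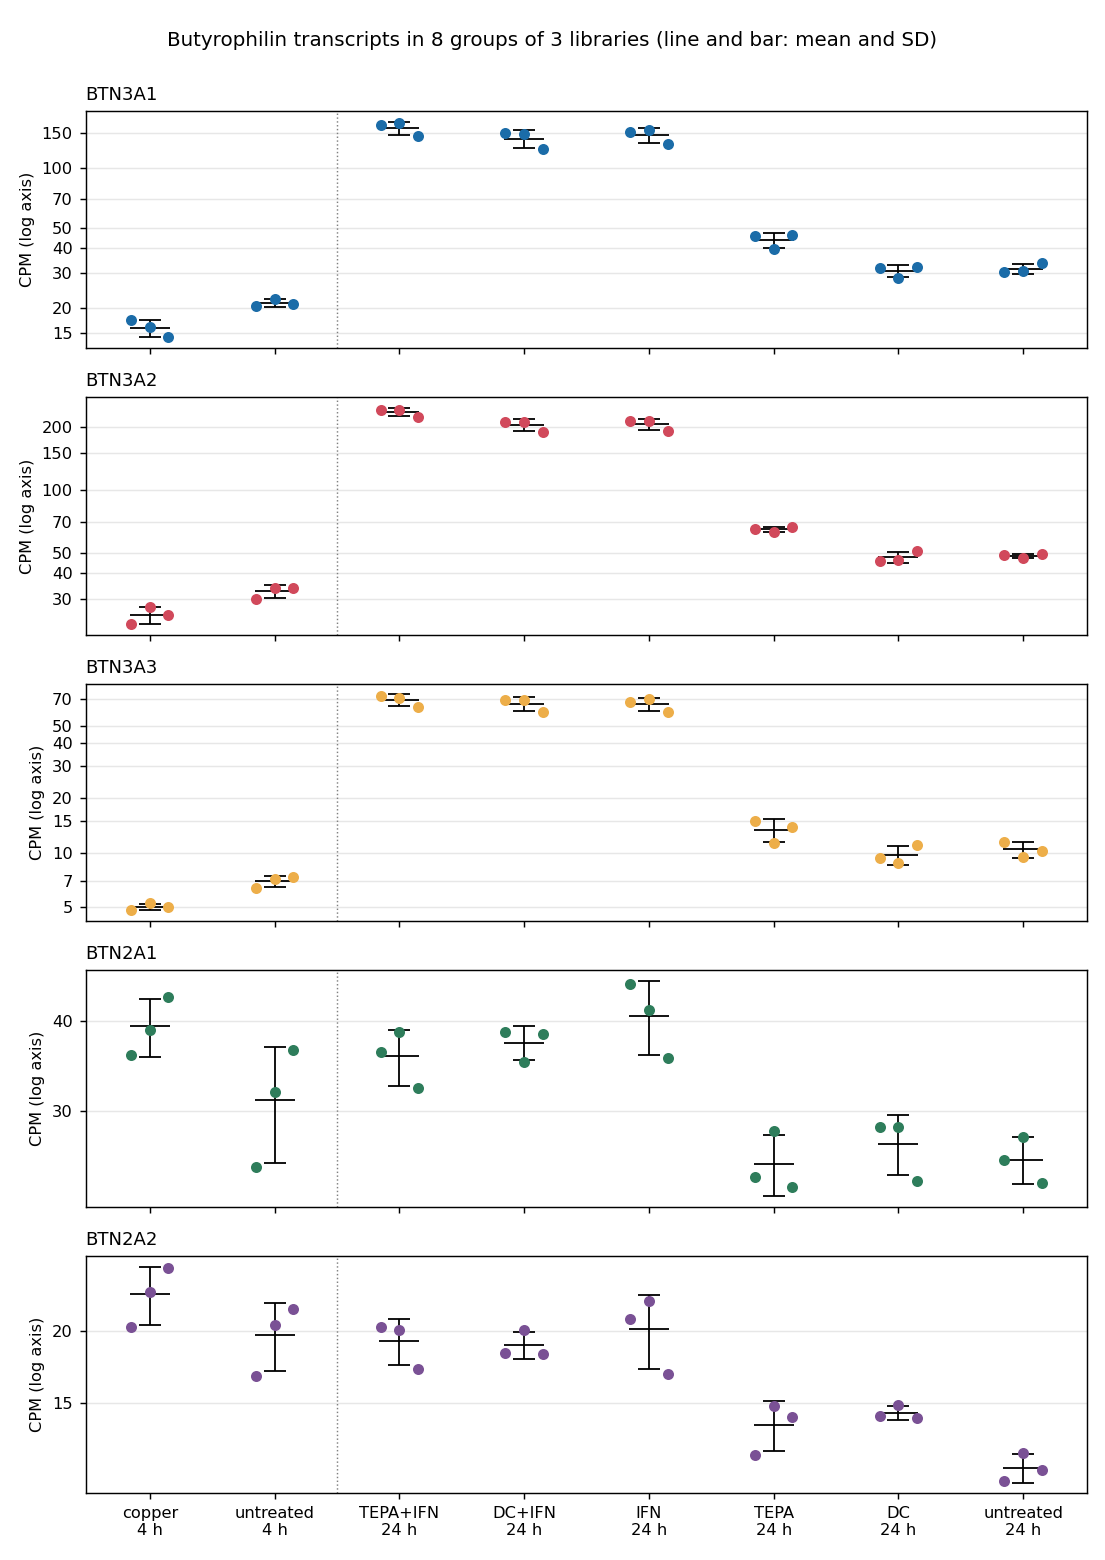
Level of each butyrophilin transcript in every library, in TMM-scaled CPM on a log axis, with the mean and SD (black) of the 3 libraries of each group. The BTN3A genes separate into IFN and other groups, with BTN3A1 at 125 CPM or more in every IFN library and at 46.1 CPM or less elsewhere, while the BTN2A genes span a narrower range and are also high at 4 h.

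In DC-treated cells the interferon difference was of similar size for the BTN3A genes. BTN3A1 had 150, 147 and 125 CPM with DC and IFN, against 31.8, 28.3 and 31.9 CPM with DC alone, a log2 fold change of 2.20 (SE 0.10, edgeR adjusted p = 1.64e-12). BTN3A2 had 212, 212 and 188 CPM with DC and IFN, against 45.7, 46.1 and 50.7 CPM with DC alone, a log2 fold change of 2.10 (SE 0.08, edgeR adjusted p = 7.13e-14). BTN3A3 had 69.8, 69.3 and 59.4 CPM with DC and IFN, against 9.38, 8.73 and 11.03 CPM with DC alone, a log2 fold change of 2.77 (SE 0.12, edgeR adjusted p = 1.08e-12). The groups did not overlap for any of the 3 genes. BTN2A1 was also called higher, with 38.6, 35.0 and 38.3 CPM with DC and IFN, against 28.4, 28.5 and 24.0 CPM with DC alone. Its log2 fold change was 0.47 (SE 0.13, edgeR adjusted p = 0.0226). BTN2A2 had 18.3, 20.04 and 18.2 CPM with DC and IFN, against 14.2, 14.8 and 14.1 CPM with DC alone. Its log2 fold change of 0.39 (SE 0.13) missed the threshold (edgeR adjusted p = 0.0575), and its lack of overlap is a description only. Thus 4 of 5 members were called higher, where 6.16% of all genes were. These BTN2A calls depend on the libraries and the fit: BTN2A1 lost its call in 5 of 6 fits that each leave out 1 library (all except the fit without the second DC library), with adjusted p up to 0.198, and BTN2A2 was called by DESeq2 (adjusted p = 0.0255) and with a GC correction (adjusted p = 0.0311), while its adjusted p over all alternatives ran from 0.0169 to 0.243.

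In TEPA-treated cells all 5 members were called higher with IFN, where 7.28% of all genes were. The TEPA libraries used here were among those whose values chose BTN3A1 and BTN3A2. BTN3A1 had 164, 168 and 145 CPM with TEPA and IFN, against 45.8, 39.5 and 46.1 CPM with TEPA alone. BTN3A2 had 241, 241 and 222 CPM with TEPA and IFN, against 65.0, 62.6 and 66.2 CPM with TEPA alone. BTN3A3 had 73.4, 71.3 and 63.6 CPM with TEPA and IFN, against 14.9, 11.3 and 13.9 CPM with TEPA alone. The libraries were again well apart, from a higher starting level than in cells without TEPA. The log2 fold changes were 1.86 (SE 0.10) for BTN3A1, 1.86 (SE 0.08) for BTN3A2 and 2.38 (SE 0.12) for BTN3A3, each with an edgeR adjusted p of 2.01e-11 or less. BTN2A1 had 36.2, 38.6 and 32.3 CPM with TEPA and IFN, against 24.2, 28.1 and 23.5 CPM with TEPA alone, and BTN2A2 had 20.3, 20.1 and 17.2 CPM, against 12.2, 14.8 and 14.2 CPM. Neither gene's groups overlapped, and their log2 fold changes were 0.50 (SE 0.13, edgeR adjusted p = 0.0119) and 0.48 (SE 0.13, edgeR adjusted p = 0.0126). Each of these BTN2A calls was lost in 4 of 6 fits that leave out 1 library (without TEPA library 1 or 3, or TEPA and IFN library 1 or 2) and in a fit of these 6 libraries alone, with edgeR adjusted p up to 0.108 for BTN2A1 and 0.131 for BTN2A2.

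**Figure D3:**
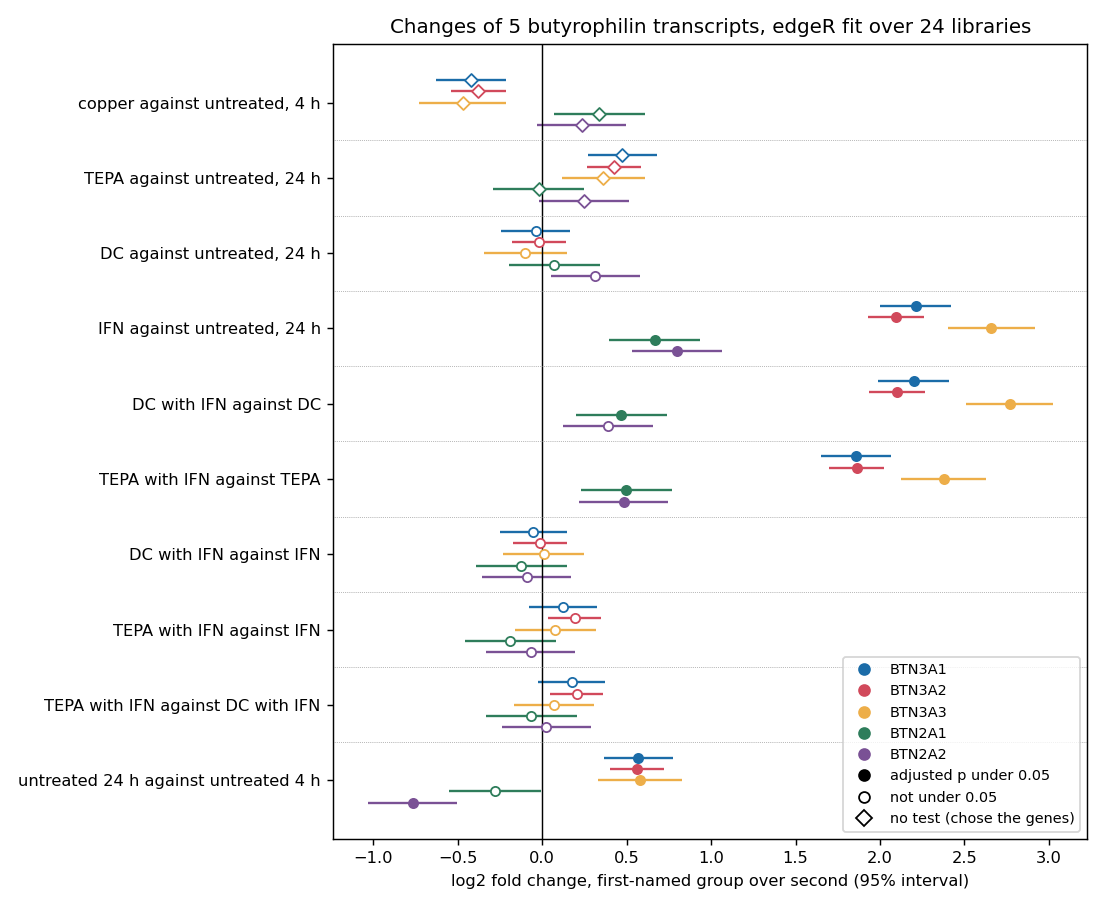
Log2 fold change of each butyrophilin in 10 comparisons, the group named first over the group named second, with 95% intervals from the edgeR fit over 24 libraries. Filled circles passed an adjusted p of 0.05, open circles did not, and diamonds are the comparisons that chose the genes and carry no test. The BTN3A genes lie between 1.86 and 2.77 in the 3 interferon comparisons, and the BTN2A genes between 0.39 and 0.80.

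In the counts, the BTN3A genes did not keep the same proportions under interferon. BTN3A3 made up 15.7%, 16.02% and 15.5% of the summed BTN3A counts in the IFN libraries, against 12.7%, 10.9% and 11.05% in the untreated 24 h libraries. Its share was 16.2%, 16.2% and 15.96% with DC and IFN, against 10.8%, 10.5% and 11.8% with DC alone. It was 15.3%, 14.9% and 14.7% with TEPA and IFN, against 11.9%, 9.95% and 11.01% with TEPA alone. The shares of the 9 libraries with IFN all lay above those of the 9 libraries without it, with means of 15.6% and 11.2%. In an exact permutation test within the untreated, DC and TEPA backgrounds the difference of 4.44 percentage points had a two-sided p of 0.00025, the smallest the 8000 arrangements can give (0.0005 adjusted over the 2 ratios tested). This share was chosen after its values were seen, and further ratios within a library were computed and not tested. Its p and adjusted p therefore carry no weight, and the difference is read as a description only. The libraries without IFN also include the untreated and TEPA libraries whose values chose the genes. The share further depends on how reads were divided among the BTN3A copies, as does the BTN3A1 to BTN3A2 ratio below. The summed row cannot check that division, and 19.17% of the 50-base windows of BTN3A3 occur in another copy.

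The ratio of BTN3A1 to BTN3A2 counts, on a log2 scale, averaged -0.533 in the 9 libraries with IFN and -0.604 in the 9 without. The difference of 0.0707 had an exact two-sided permutation p of 0.0493 (0.0493 adjusted over the 2 ratios). It did not hold when the replicates of any 1 number were left out, where it ran from 0.0249 to 0.107 with exact p of 0.0556 to 0.574, or when signs were changed within replicate numbers (exact p = 0.0781).

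Neither chelator changed a member detectably once interferon was present. In TEPA and IFN libraries against IFN libraries, 0 of 5 members were called by edgeR or by DESeq2 (background 1.90% of genes in edgeR), and BTN3A2 alone had an unadjusted edgeR p under 0.05. BTN3A2 had 241, 241 and 222 CPM with TEPA and IFN, against 213, 213 and 191 CPM with IFN alone. The lack of overlap is a description only. Its log2 fold change was 0.19 (SE 0.08, edgeR adjusted p = 0.266), as against 0.12 (95% interval -0.08 to 0.32) for BTN3A1 and 0.08 (-0.16 to 0.32) for BTN3A3. BTN2A1 had -0.19 (-0.46 to 0.08) and BTN2A2 -0.07 (-0.33 to 0.19). In TEPA and IFN libraries against DC and IFN libraries, 0 of 5 were called by either tool (background 2.72%), and again BTN3A2 alone had an unadjusted p under 0.05, with a log2 fold change of 0.21 (SE 0.08, edgeR adjusted p = 0.192). Both comparisons use the TEPA and IFN libraries and are not separate evidence.

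DC did not change any member detectably. In DC libraries against untreated 24 h libraries, 0 of 5 were called by edgeR or DESeq2, where edgeR called 0.0136% of genes. BTN2A2 was the member with an unadjusted p under 0.05, at 14.2, 14.8 and 14.1 CPM with DC, against 10.97, 12.3 and 11.4 CPM untreated. Its log2 fold change was 0.32 (SE 0.13, edgeR adjusted p = 1), and its lack of overlap is a description only. The 3 BTN3A changes lay between -0.10 and -0.02, and the 95% interval of BTN3A1 was -0.24 to 0.16. In DC and IFN libraries against IFN libraries, 0 of 5 were called by either tool and none had an unadjusted p under 0.05, where edgeR called 0.0205% of genes, and the log2 fold changes were between -0.12 and 0.01. The interferon effect in DC minus that in untreated cells was called for 0 of 5 members by either tool, with edgeR calling 0 of 14654 genes (142 at an unadjusted p under 0.05) and DESeq2 calling 2. The difference of effects was -0.01 (95% interval -0.30 to 0.27) for BTN3A1, 0.01 (-0.22 to 0.23) for BTN3A2 and 0.11 (-0.24 to 0.45) for BTN3A3. BTN2A2 had -0.41 (-0.78 to -0.03) and was the member with an unadjusted p under 0.05 (adjusted p = 0.918).

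Copper for 4 h went with lower BTN3A levels. BTN3A1 had 17.3, 15.98 and 14.2 CPM with copper, against 20.4, 22.3 and 21.0 CPM in untreated 4 h cells. BTN3A2 had 22.9, 27.4 and 25.04 CPM with copper, against 30.01, 34.0 and 33.9 CPM untreated. BTN3A3 had 4.84, 5.23 and 4.97 CPM with copper, against 6.36, 7.19 and 7.29 CPM untreated. Every copper library lay below every untreated one for the 3 genes, where 6.83% of all genes were lower without overlap and edgeR called 5.85% of genes in either direction. The values chose the genes, so nothing is read from these shares. The log2 fold changes were -0.42 (SE 0.10), -0.38 (SE 0.08) and -0.47 (SE 0.12) for BTN3A1, BTN3A2 and BTN3A3. BTN2A1 had 35.9, 38.9 and 43.2 CPM with copper, against 25.003, 31.8 and 36.4 CPM untreated, and BTN2A2 had 20.3, 23.4 and 25.7 CPM, against 16.7, 20.5 and 21.8 CPM. Both overlapped between groups, with log2 fold changes of 0.34 (SE 0.13) and 0.23 (SE 0.13), and in both groups the first library was the lowest. Libraries of the same number deviated together in this comparison, and within numbers copper was higher in 3 of 3 pairs for BTN2A1 and for BTN2A2. That count is a description only, as the pairing comes from the data and its share over all genes is not given. Without the 2 libraries that stood apart in GC content the log2 fold changes were -0.52 for BTN3A1, -0.38 for BTN3A2, -0.51 for BTN3A3, 0.26 for BTN2A1 and 0.21 for BTN2A2. The log2 ratio of BTN3A1 to BTN3A2 was -0.40 in the first copper library, against -0.78 and -0.81 in the others and -0.56 to -0.69 in untreated 4 h cells.

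TEPA alone for 24 h went with higher BTN3A levels. The TEPA values given above, 39.5 to 46.1 CPM for BTN3A1 and 62.6 to 66.2 CPM for BTN3A2, lay above the untreated 24 h values of 30.3 to 33.5 CPM and 47.1 to 49.0 CPM in every library. BTN3A3 overlapped, at 11.3 to 14.9 CPM with TEPA and 9.47 to 11.5 CPM untreated. The log2 fold changes were 0.47 (SE 0.10), 0.42 (SE 0.08) and 0.36 (SE 0.12) for BTN3A1, BTN3A2 and BTN3A3. BTN2A1 differed by -0.02 (SE 0.13) and BTN2A2 by 0.25 (SE 0.13), both with overlapping libraries. Within libraries of the same number, which deviated together here too, TEPA was higher in 3 of 3 pairs for BTN3A3 and BTN2A2 and in 1 of 3 for BTN2A1. These pair counts are a description only, and their share over all genes is not given. Of all genes 6.97% were higher without overlap and edgeR called 1.06%; here too the values chose the genes. The second TEPA library had a GC measure of 0.626, against -1.03 and -0.775 in the other TEPA libraries, and without it the BTN3A changes were 0.55, 0.45 and 0.48. The interferon effect in TEPA cells minus that in untreated cells was -0.35 (SE 0.14) for BTN3A1, -0.23 (SE 0.11) for BTN3A2 and -0.28 (SE 0.16) for BTN3A3, and it shares its libraries with the TEPA comparison.

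The untreated groups differed in opposite directions for the BTN3A genes and for BTN2A2. In untreated cells at 24 h against untreated cells at 4 h, the BTN3A genes were higher. BTN3A1 had 30.3, 30.7 and 33.5 CPM at 24 h and 20.4, 22.3 and 21.0 CPM at 4 h. Its log2 fold change was 0.57 (SE 0.10, edgeR adjusted p = 0.00122), beside 0.56 (SE 0.08, adjusted p = 1.97e-04) for BTN3A2 and 0.58 (SE 0.12, adjusted p = 0.00513) for BTN3A3. BTN2A2 went the other way, with 10.97, 12.3 and 11.4 CPM at 24 h and 16.7, 20.5 and 21.8 CPM at 4 h, a log2 fold change of -0.77 (SE 0.13, edgeR adjusted p = 8.70e-04). BTN2A1 differed by -0.28 (SE 0.13) with overlapping libraries and was not called (adjusted p = 0.141). So 3 members were called higher, where 5.90% of genes were, and 1 lower, where 3.79% were. Without the 2 libraries that stood apart the same 4 calls held and BTN2A1 was also called (-0.44, SE 0.12, edgeR adjusted p = 0.00588). That fit called 8191 genes, so a call in it says little about a member. The untreated 4 h libraries left in it had GC measures of 0.653 and 1.38, against -0.962 to -0.364 at 24 h. With the GC correction on all libraries BTN2A1 was not called (-0.23, SE 0.10, edgeR adjusted p = 0.0849), while BTN2A2 and the BTN3A genes were. With only the 6 untreated libraries in the fit, 0 members and 1 gene of 13796 were called, the members' adjusted p running from 0.167 to 0.357 at nearly the same fold changes. The untreated groups are also the comparison groups for copper and TEPA, so the 3 comparisons are not independent.

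The balance of the subfamilies within a library needs no scaling. The log2 ratio of summed BTN3A to summed BTN2A counts was -0.44 ± 0.17 with copper and 0.27 ± 0.18 in untreated cells at 4 h (SD, n = 3 each). At 24 h it was 3.08 ± 0.05 with TEPA and IFN, 2.87 ± 0.13 with DC and IFN, 2.78 ± 0.08 with IFN, 1.65 ± 0.21 with TEPA, 1.09 ± 0.19 with DC and 1.28 ± 0.14 untreated. Untreated 24 h and DC values overlapped within their spread, as did those with IFN and with DC and IFN. BTN3A counts were thus fewer than BTN2A counts in the copper libraries, and several times more numerous in every library with IFN.

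**Figure D4:**
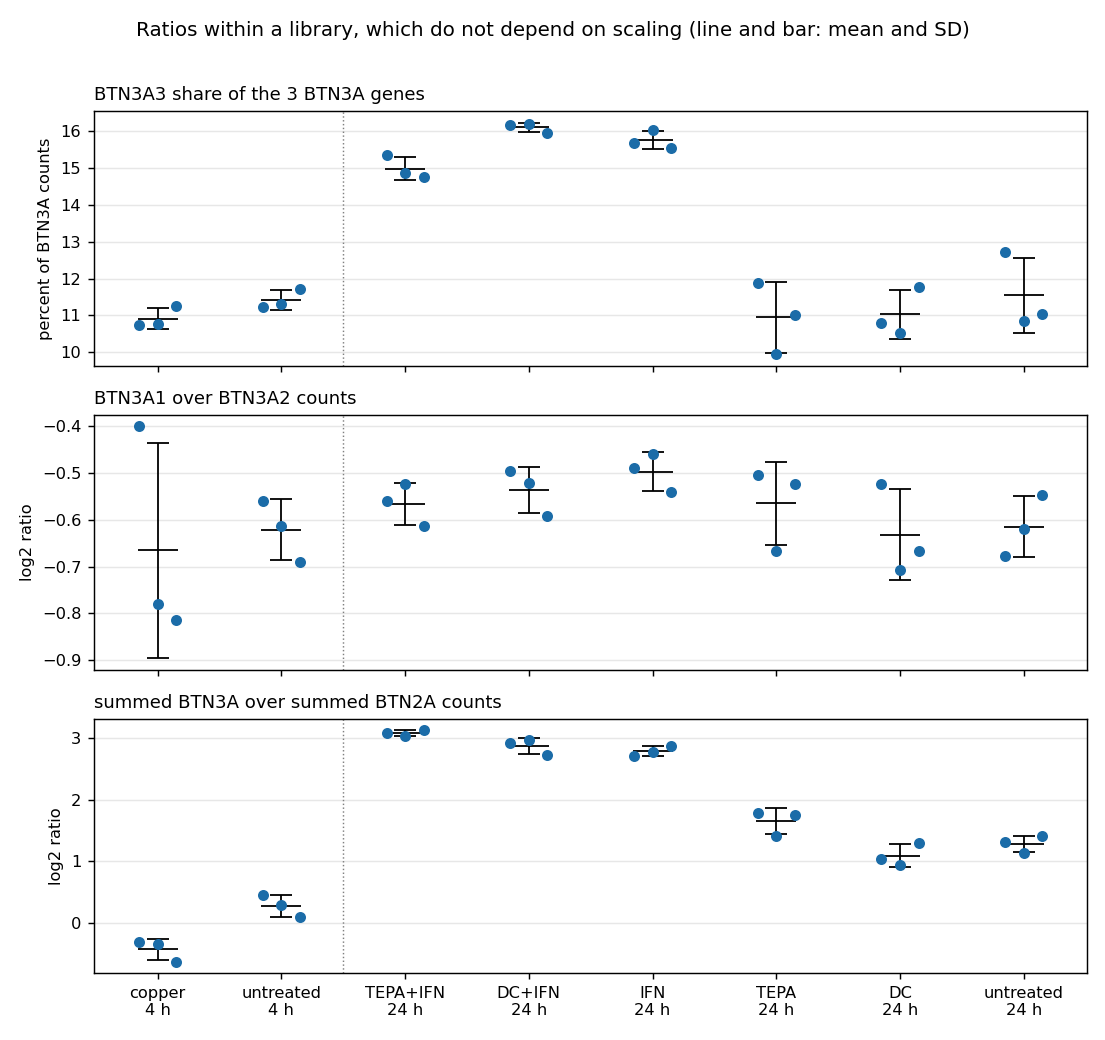
Share of BTN3A3 in BTN3A counts (percent), log2 ratio of BTN3A1 to BTN3A2 counts and log2 ratio of summed BTN3A to summed BTN2A counts, for each library with the mean and SD (black) of its group of 3. The BTN3A3 share is about 14.7% or more in every library with IFN and about 12.7% or less in every other library, and the first copper library stands apart from the other copper libraries in the ratio of BTN3A1 to BTN3A2.

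Ordered by mean level, BTN3A1 ran from copper (15.9 ± 1.56 CPM) through untreated 4 h (21.2 ± 0.964), DC (30.7 ± 2.10), untreated 24 h (31.5 ± 1.77), TEPA (43.8 ± 3.74), DC and IFN (141 ± 13.9) and IFN (146 ± 12.6) to TEPA and IFN (159 ± 11.9; SD, n = 3 each). Neighbours overlapped for DC and untreated 24 h cells and among the 3 groups with IFN. BTN3A2 had the same order, from 25.1 ± 2.28 CPM with copper to 235 ± 10.9 CPM with TEPA and IFN, and there the TEPA and IFN libraries lay above those of the other groups. BTN3A3 ran from 5.02 ± 0.200 CPM with copper to 69.4 ± 5.17 CPM with TEPA and IFN.

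BTN2A1 was ordered differently, from 25.3 ± 2.47 CPM with TEPA to 39.3 ± 3.67 CPM with copper and 40.7 ± 4.86 CPM with IFN, and each group overlapped its neighbour. BTN2A2 ran from 11.6 ± 0.669 CPM in untreated 24 h cells to 20.1 ± 2.93 CPM with IFN and 23.1 ± 2.68 CPM with copper. Its only gap between neighbours lay between DC (14.4 ± 0.393 CPM) and DC and IFN (18.9 ± 1.02 CPM).

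Divided by the length of the longest coding transcript, BTN3A2 had the highest level of the family in untreated 24 h cells, at 12.9 ± 0.27 CPM per kilobase, followed by BTN3A1 at 9.17 ± 0.52, BTN2A1 at 8.24 ± 0.61, BTN3A3 at 3.46 ± 0.34 and BTN2A2 at 3.22 ± 0.19 (SD, n = 3 each). The libraries of BTN3A1 and BTN2A1 overlapped, as did those of BTN3A3 and BTN2A2, and with the longest transcript of any type BTN3A3 came to 2.29, below BTN2A2. With IFN the levels per kilobase were 55.1 ± 3.31 for BTN3A2, 42.5 ± 3.67 for BTN3A1, 21.9 ± 1.87 for BTN3A3, 13.1 ± 1.56 for BTN2A1 and 5.60 ± 0.82 for BTN2A2. No neighbours in that order overlapped, but with the longest transcript of any type BTN3A3 came to 14.5 ± 1.23, close to BTN2A1. With copper the order was different, with BTN2A1 first at 12.6 ± 1.18 CPM per kilobase, BTN3A2 at 6.73 ± 0.61, BTN2A2 at 6.45 ± 0.75, BTN3A1 at 4.62 ± 0.45 and BTN3A3 at 1.67 ± 0.07. The libraries of BTN3A2 and BTN2A2 overlapped.

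Of the 11 regulators listed, 6 were called higher with IFN and 1 lower, and the counts were the same in the DC and the TEPA backgrounds. Of all genes edgeR called 10% higher with IFN, 6.16% in the DC background and 7.28% in the TEPA background. The list's median log2 fold change with IFN was 1.33. NLRC5, the class I transactivator, averaged 221 ± 64.3 CPM with IFN and 0.313 ± 0.134 CPM untreated (SD, n = 3 each). IRF1 averaged 348 ± 116 CPM with IFN and 2.18 ± 0.204 CPM untreated. For these 2 genes the third IFN library was the lowest, as it was for the members. That library also had the lowest GC measure of the IFN libraries, at -0.125 against 0.593 and 0.900. With DC and IFN the third library was again the lowest for the BTN3A genes but had the highest GC measure, 0.373 against -0.198 and -0.174. With TEPA and IFN the third library was the lowest for those genes and in GC measure, at 0.139 against 0.262 and 0.869. The part of the GC measure in these levels was not tested. CIITA, the class II transactivator, had 0 counts in the untreated 24 h libraries and averaged 4.90 CPM with IFN, at least 153-fold higher against a floor of 3 counts over the untreated group. NFYA, a subunit of the Y box factor NF-Y, was lower by a log2 fold change of -0.73 (SE 0.10, edgeR adjusted p = 1.76e-05). With copper RFX5 (0.37, SE 0.10, edgeR adjusted p = 0.0257) and NFYC (0.45, SE 0.09, adjusted p = 0.00372) were called higher, and no regulator was called lower. With copper edgeR called 5.85% of all genes in either direction.

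The 8 class I pathway genes listed were all called higher with IFN in each of the 3 backgrounds, beside the same shares of all genes as above. Their median log2 fold change with IFN was 7.52, or 6.11 with HLA-F, which had 0 counts untreated, at its lower bound against that floor. The smallest of the 8 changes with IFN was 3.38, above the largest butyrophilin change of 2.66. B2M, the invariant class I chain, averaged 2758 ± 195 CPM with IFN and 186 ± 11.3 CPM untreated. Reads of HLA genes can be divided among near copies. In edgeR 0 of the 8 were called with copper, TEPA alone or DC alone, and 0 had an unadjusted p under 0.05, with median log2 fold changes of 0.05, 0.21 and 0.08. The lists were fitted with edgeR only.

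Of 9 relatives listed, BTN2A3P, BTN1A1 and ERMAP passed the filter, while BTNL2, BTNL8, BTNL9 and BTNL10 had 0 counts in all 24 libraries. BTN2A3P, the pseudogene inside the cluster, was called higher with IFN (log2 fold change 0.88, SE 0.25, edgeR adjusted p = 0.0161), and shares sequence with the BTN2A genes. ERMAP, a butyrophilin-like gene of red cell precursors, was called higher with copper (0.43, SE 0.11, adjusted p = 0.0258). Of 36 annotated genes that start within 200 kilobases of the cluster, 7 passed the filter, and BTN2A3P was the one called with IFN, where edgeR called 10% of all genes higher.

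The isoprenoid pathway makes the phosphoantigens, and its 10 listed enzymes were all tested. With IFN against untreated cells 0 were called higher and 1 lower: ACAT2, an acetyl-CoA thiolase, had a log2 fold change of -0.34 (SE 0.08, edgeR adjusted p = 0.00420). In TEPA and IFN against DC and IFN libraries 4 were called lower, where edgeR called 2.72% of all genes in either direction. HMGCS1, which makes HMG-CoA, had 99.8, 99.95 and 107 CPM with TEPA and IFN, against 191, 199 and 154 CPM with DC and IFN (-0.83, SE 0.20, adjusted p = 0.0258). FDFT1, squalene synthase, had -0.50 (SE 0.08, adjusted p = 0.00208). IDI1, the isomerase between both phosphoantigens isopentenyl and dimethylallyl diphosphate, had -0.59 (SE 0.11, adjusted p = 0.00628), and ACAT2 had -0.41 (SE 0.08, adjusted p = 0.00618). In TEPA and IFN against IFN libraries IDI1 and FDFT1 were called lower, and in TEPA against untreated libraries ACAT2 and FDFT1 were. There edgeR called 1.90% and 1.06% of all genes in either direction. FDPS, which consumes the phosphoantigens, was not called in any of these comparisons. With copper 0 of the 10 were called and 1 had an unadjusted edgeR p under 0.05, and the list's median was 0.00. Of the 4 listed partners, ABCA1, an exporter of isopentenyl diphosphate, was called higher in TEPA and IFN against IFN libraries (1.69, SE 0.38, edgeR adjusted p = 0.0259) and lower with IFN (-1.16, SE 0.39, adjusted p = 0.0467), at 1.10 CPM or less in every library.

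Over all 24 libraries the 3 BTN3A genes followed each other with Pearson r of 0.996 or more on log2 CPM, and over the 15 libraries without IFN with 0.974 or more. BTN2A1 and BTN2A2 had r = 0.870 over 24 libraries. These r values share libraries, depth and treatment groups and carry no test. The genes most like BTN3A1 and BTN3A2 over 24 libraries were MLKL, the executioner of necroptosis, TRIM25, an antiviral ubiquitin ligase, and TRIM69, with r of 0.986 to 0.992. Those most like BTN3A3 were TRIM25, MLKL and IFIT1 (0.991 to 0.995). BTN2A1 was most like VGF, MAFF and ELMSAN1 (0.947 to 0.962), and BTN2A2 most like DEDD, FOSL2 and GTPBP2 (0.922 to 0.940). Over the 15 libraries without IFN, BTN3A1 was most like CTSK, POLH and PMS2 (0.976 to 0.985) and BTN3A2 most like TRIM25, LOC100129461 and METTL7A (0.979 to 0.992). BTN3A3 was most like LINC00847, METTL7A and CNNM1 (0.976 to 0.981), BTN2A1 most like RNF216P1, SETD8 and GTPBP2 (0.984 to 0.988), and BTN2A2 most like NAB2, LOC100130417 and FOSL2 (0.962 to 0.965).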

How the data were processed

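The authors deposited raw counts, 1 whole number for each gene symbol and library, with no scaling. The submitters' processing notes name STAR 2.5a, RSEM 1.2.31 and build hg38, with no role, annotation release or strand setting; the library kit was stranded, per the labels' protocols. The table and the lists per library held equal values. Counts were fitted with edgeR 4.0.16 (R 4.3.3): filterByExpr, TMM factors, quasi-likelihood tests over all 24 libraries with 1 term per group (16 residual degrees of freedom), and Benjamini-Hochberg adjustment over 14654 genes; called means an adjusted p under 0.05. DESeq2 1.42.0 was an alternative. The fit was tested on simulated data. Ratios were tested by exact permutation (scipy 1.17.1). Totals cover counting error only; the labels' groups were used as given, and no 2 libraries of the same group were duplicates (pairs from different groups were not compared).

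The members, gene lists and tests were chosen with earlier results of these data known. The 5 members were named throughout; of other lists at most 4 genes, the most abundant first, plus NLRC5 and IRF1 (other genes that this rule names are not reported here); other listed genes given with values were chosen for being called. Like genes were the 3 of highest correlation. Same-numbered libraries deviated together (all 3 correlations above 0.1) in TEPA and IFN against TEPA, DC against untreated, copper against untreated and TEPA against untreated; the pairing comes from the data and not from the labels. Motifs were searched on both strands of RefSeq promoter windows. GENCODE 29 gave positions and transcript lengths. The GC correction used a lowess per library and covered 93.7% of tested genes.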

Additional observations from a re-analysis of the deposited data

How the results depend on the processing

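The BTN3A calls in the 3 interferon comparisons held under every alternative run, with log2 fold changes that kept their direction. The BTN2A calls with IFN against untreated cells also held under every alternative run, with adjusted p up to 0.0159 for BTN2A1 and 0.00293 for BTN2A2, while those in the DC and TEPA backgrounds, at log2 fold changes of 0.47 to 0.50, did not. In TEPA and IFN against TEPA, 3 members were called with only the libraries of the groups compared, and 3 to 5 when 1 library was left out. In TEPA and IFN against DC and IFN, 1 member (BTN3A2, adjusted p = 0.0466) was called with the replicate block and GC correction together. In untreated 24 h against 4 h cells 0 were called with only the libraries compared. For copper, the log2 fold change of BTN3A1 minus that of BTN3A2 was -0.04, from -0.17 (without the first copper library) to 0.026 when 1 library was left out, and -0.15 without the 2 libraries that stood apart (chosen after seeing the data). The ratio of BTN3A1 to BTN3A2 differed by 0.0707 with the replicate block, past its threshold no longer (exact permutation p = 0.0781), and by 0.0249 to 0.107 without the replicates of 1 number. The replicate block also called BTN2A2 in DC and IFN against DC (adjusted p = 0.0378) and changed no other member's call.

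Values near 0 that were not called turned sign. BTN3A2 in DC and IFN against IFN was 0.0104 with RLE factors and 0.0101 with DESeq2, and BTN3A3 there was -0.0164 with the GC correction and -0.0160 with the block and GC correction. The difference of interferon effects between DC and untreated cells was 0.00653 for BTN3A1 with RLE factors and 0.00712 with DESeq2, and -0.00410 and -0.00370 for BTN3A2 with the GC correction, without and with the block. When 1 library was left out, these ran from -0.0478 to 0.0540 (BTN3A2, DC and IFN against IFN), -0.0446 to 0.0932 (BTN3A3), -0.0808 to 0.0664 (BTN3A1, difference of effects) and -0.0404 to 0.0613 (BTN3A2). Others that turned sign ran from -0.107 to 0.0402 (BTN3A1) and -0.191 to 0.00562 (BTN2A2) in DC and IFN against IFN, -0.0579 to 0.0236 (BTN3A1) and -0.0446 to 0.0224 (BTN3A2) in DC against untreated, -0.0281 to 0.0887 (BTN2A2) and -0.0110 to 0.120 (BTN3A3) in TEPA and IFN against DC and IFN, and -0.176 to 0.0207 (BTN2A2) in TEPA and IFN against IFN. The cause of these changes was not tested.

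Counts over all genes moved more. With IFN 2761 genes were called, 4718 with the GC correction, 4333 with the block, 5434 with both and 6703 in the groups' own libraries. When 1 library was left out the count ran from 1707 to 3636. Untreated 24 h against 4 h gave 1420, 3797 with the GC correction, 2254 with the block, 4354 with both, 2510 with DESeq2 and 1 in its own libraries. It gave 7375 without the first untreated 4 h library and 555 without the third. For the next comparisons the counts are the reported one, that with the GC correction, that with the block and GC correction together, and that in the groups' own libraries. Copper gave 857, 3005, 3251 and 61. TEPA gave 155, 1270, 1454 and 0, and 374 with DESeq2. TEPA and IFN against IFN gave 279, 1872, 2103 and 121, with 428 under the block alone and 583 with DESeq2. TEPA and IFN against DC and IFN gave 398, 2030, 2311 and 713, and 731 with DESeq2. TEPA and IFN against TEPA gave 2076, 4221, 4569 and 1186, and DC and IFN against DC gave 1439, 3305 and 3549 with the GC correction without and with the block. Without the filter on low counts the calls were 86 for TEPA, 183 for TEPA and IFN against IFN, and 265 for TEPA and IFN against DC and IFN.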
